A study of Homo sapiens with 6 samples.

Results

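The urokinase and plasminogen activation genes described here are *PLAU*, *PLAUR*, *PLAT*, *SERPINE2* and *SERPINB2*. They were chosen by name for their roles, at a time when earlier results of these data were already known. They are 5 of the 20824 genes listed, and all 5 were among the 12805 genes whose mean over all libraries reached 0.5 RPKM (reads per kilobase of transcript, scaled to mapped reads). Messenger RNA was sequenced from 21NT cells, a human breast cell line used as a model of ductal carcinoma in situ. The EV line was stably transfected with an empty pcDNA3.1 vector, and the TBX3iso1 and TBX3iso2 lines with the same vector carrying isoform 1 or isoform 2 of the T-box transcription factor TBX3. Each line gave 2 libraries, and all 3 lines had been selected in G418 and kept in serum-containing medium with insulin, EGF and hydrocortisone. Each condition is therefore 1 transfected line, and a feature of that line cannot be told apart from the effect of the transgene. The sources used here do not state that the paired libraries were separate cultures, so the p-values measure the spread between libraries, which may be technical.

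The urokinase system turns plasminogen, a circulating zymogen, into plasmin, a broad protease that digests fibrin and parts of the extracellular matrix. Urokinase (uPA, *PLAU*) is a secreted serine protease that is held at the cell surface by its GPI-anchored receptor uPAR (*PLAUR*), and tissue-type plasminogen activator (tPA, *PLAT*) is the activator best known from fibrin clots. Serpins trap these proteases in a covalent complex. Protease nexin-1 (*SERPINE2*) inhibits thrombin, urokinase and plasmin, and plasminogen activator inhibitor 2 (*SERPINB2*) inhibits both activators and is largely kept inside the cell. In breast tumours the system is known for its link to matrix degradation and invasion.

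Transcripts of urokinase, its receptor and tissue-type activator were more abundant in both TBX3 lines than in EV. *PLAU* was 3.84-fold higher in TBX3iso1 and 3.72-fold higher in TBX3iso2, *PLAUR* was 2.45-fold and 2.06-fold higher, and *PLAT* was 3.55-fold and 1.84-fold higher. *SERPINE2* was 1.49-fold and 1.41-fold higher, under the 1.5-fold threshold used for calls. *SERPINB2* was rare in EV and rose most in TBX3iso1. The isoforms differed for *PLAT* and *SERPINB2*, both lower in TBX3iso2 than in TBX3iso1. These folds are on the scale of RPKM + 0.1, with standard errors and tests given for each gene below.

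The libraries held 43176600 to 54512400 alignments. Replicates of a line correlated across genes at r = 0.992 to 0.996. The RPKM values summed to 359687 in TBX3iso1 replicate 2 and 357269 in TBX3iso2 replicate 2. In the other libraries the sums were 323953 to 331476. *TBX3* itself read 8.52 and 8.24 RPKM in the EV libraries, 13.1 and 11.4 in TBX3iso1, and 17.5 and 15.5 in TBX3iso2, which does not separate the isoforms. Against EV it was 1.45-fold higher in TBX3iso1, under the 1.5-fold threshold and so not called. In TBX3iso2 it was 1.96-fold higher and was called. Of 7 epithelial markers 6 reached a mean of 1 RPKM, with *KRT14* near 0, and their sum was 2250 to 2320 in EV, 1810 to 2000 in TBX3iso1 and 2100 to 2340 in TBX3iso2. The defining leukocyte genes *PTPRC* and *CD3E* were near 0, while the sum of the leukocyte list, carried by *CD68* and *CD14*, was 52.6 to 54.8 RPKM in EV and 36.2 to 36.8 in the TBX3 lines. The endothelial list was carried by *PECAM1*, with sums of 7.2 to 7.56 in EV, 1.17 to 1.18 in TBX3iso1 and 1.23 to 1.4 in TBX3iso2, and the fibroblast list by *COL1A1*, with sums of 4.6 to 4.86, 8.12 to 8.69 and 7.14 to 7.58. The part of other cell types in the results was not tested. The values are from whole cultures, where fewer cells expressing a gene and less RNA per cell cannot be told apart.

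A gene was called changed when limma gave a Benjamini-Hochberg adjusted p under 0.05 over all tested genes and a fold change over 1.5. By this rule 7.46% of tested genes were higher in TBX3iso1 than in EV and 8.94% were higher in TBX3iso2. Of the 4 members other than *SERPINB2*, 3 were called higher in each comparison and none lower (lower were 14.1% of tested genes in TBX3iso1 and 12.3% in TBX3iso2). The split over all genes in TBX3iso1 depended on the scaling, with 955 higher and 1802 lower here, 1263 and 1449 with median-ratio scaling, and 1259 and 1313 with quantile normalization. *SERPINB2* was called higher in both but is counted apart, because it reached the 0.5 RPKM mean only through TBX3iso1. Both comparisons use the same EV libraries, so their counts are not independent. The members were chosen with earlier results of these data known. Counts of members called, here and below, are therefore a description and are not read against the background.

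**Figure D1:**
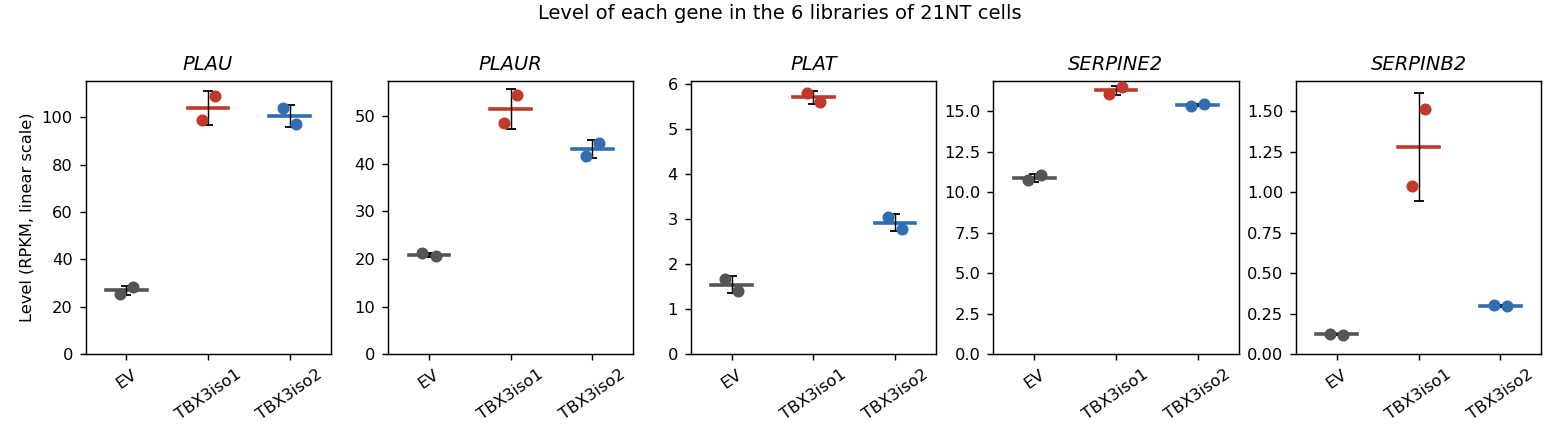
RPKM of the 5 genes in each of the 6 libraries, on a linear axis from 0 for each gene, with points for libraries, horizontal bars for line means and error bars for the SD (n = 2). The libraries of both TBX3 lines lie above the EV libraries for each gene, and *PLAT* and *SERPINB2* are higher in TBX3iso1 than in TBX3iso2. The share of all tested genes that separate in this way was not counted, and *SERPINB2* reached the 0.5 RPKM mean only through TBX3iso1.

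*PLAU* lies on chromosome 10 (hg19, chr10:75668935-75677254, forward strand) and encodes the urokinase protease. It read 25.6 and 28.4 RPKM in the EV libraries, 98.9 and 109 RPKM in TBX3iso1, and 104 and 97.3 RPKM in TBX3iso2. Every TBX3 library was above both EV libraries, while the isoform lines overlapped. For this gene and those below, the share of all tested genes that separate between lines was not counted. The means were 27.0 ± 1.98, 104 ± 7.08 and 101 ± 4.62 RPKM (SD, n = 2 libraries each). The log2 fold change was 1.94 ± 0.0882 (SE) in TBX3iso1 (limma, adjusted p = 8.34e-06) and 1.89 in TBX3iso2 (adjusted p = 1.00e-05). The isoform lines differed by -0.05 on the log2 scale, with a 95% interval from -0.25 to 0.16 and adjusted p = 0.77. In EV, *PLAU* was above 87.4% to 88.7% of all genes, and in the TBX3 lines above 96.8% to 97.4%.

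The lncRNA *C10orf55* overlaps *PLAU* on the opposite strand, and whether strand was used in counting is not given in the sources used here. *C10orf55* read 0.846 and 0.776 RPKM in EV, 1.14 and 1.09 in TBX3iso1, and 0.900 and 0.774 in TBX3iso2. Its level was far below that of *PLAU* in each library, and it was not called in either comparison with EV (log2 fold changes 0.42 and 0.04, limma adjusted p = 0.0528 and 0.85).

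*PLAUR* lies on chromosome 19 (chr19:44150247-44174699, reverse strand) and encodes the receptor that concentrates urokinase at the cell surface. It read 21.2 and 20.6 RPKM in EV, 48.5 and 54.4 in TBX3iso1, and 41.7 and 44.4 in TBX3iso2. The lines did not overlap in any pair, and the share of all tested genes for which this holds was not counted. The log2 fold change was 1.30 ± 0.0814 (SE) in TBX3iso1 (adjusted p = 3.18e-05) and 1.04 in TBX3iso2 (adjusted p = 7.86e-05, limma). The difference between the isoform lines was -0.26, with a 95% interval from -0.45 to -0.07, and its adjusted p of 0.0763 (limma) missed the threshold.

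*PLAT* lies on chromosome 8 (chr8:42032236-42065227, reverse strand) and encodes the second activator, which does not depend on the urokinase receptor. It was far less abundant than *PLAU*, at 1.68 and 1.41 RPKM in EV, 5.80 and 5.60 in TBX3iso1, and 3.05 and 2.78 in TBX3iso2. The lines formed 3 separate levels, with TBX3iso2 between EV and TBX3iso1. The log2 fold change was 1.83 ± 0.12 (SE) in TBX3iso1 (adjusted p = 3.72e-05) and 0.88 in TBX3iso2 (adjusted p = 0.000939, limma). *PLAT* was lower in TBX3iso2 than in TBX3iso1 by a log2 difference of -0.94 (95% interval -1.22 to -0.67, limma adjusted p = 0.00301). Of the 4 members other than *SERPINB2*, *PLAT* alone was called between the isoform lines. *SERPINB2* was also called lower in TBX3iso2, but it is counted apart, because it reached the 0.5 RPKM mean only through TBX3iso1. Over all tested genes 2.82% were called lower in TBX3iso2 and 3.47% higher. This split turned with the scaling, from 444 higher and 361 lower to 351 and 440 with median-ratio scaling and 351 and 435 with quantile normalization.

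*SERPINE2* lies on chromosome 2 (chr2:224839762-224904035, reverse strand) and encodes protease nexin-1, which binds glycosaminoglycans at the cell surface and matrix. It read 10.7 and 11.1 RPKM in EV, 16.1 and 16.5 in TBX3iso1, and 15.3 and 15.4 in TBX3iso2. Neither EV library reached the lowest TBX3 library. The log2 fold change was 0.58 ± 0.0703 (SE) in TBX3iso1 (adjusted p = 0.000602) and 0.49 in TBX3iso2 (adjusted p = 0.00119, limma), both under the 1.5-fold threshold. The adjusted p alone passed in 44.8% of tested genes for TBX3iso1 and 45.5% for TBX3iso2. The value for TBX3iso1 passed the fold threshold with median-ratio scaling (0.66), with quantile normalization (0.64), without EV replicate 2 (0.60) and without TBX3iso1 replicate 1 (0.59). The isoform lines differed by -0.08 on the log2 scale (95% interval -0.25 to 0.08, limma adjusted p = 0.484), where the adjusted p alone passed in 14.8% of tested genes.

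*SERPINB2* lies on chromosome 18 (chr18:61538926-61571122, forward strand) and encodes plasminogen activator inhibitor 2. It was the least abundant member, at 0.125 and 0.119 RPKM in EV, 1.04 and 1.51 in TBX3iso1, and 0.303 and 0.295 in TBX3iso2. The TBX3iso1 libraries stood well above the rest, and those of TBX3iso2 were low but above EV. Over a transcript of 1906 bases these levels correspond to about 10 and 13 alignments in the EV libraries, 24 and 29 in TBX3iso2, and 101 and 145 in TBX3iso1.

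The mean *SERPINB2* RPKM was 10.5 times the EV mean in TBX3iso1 and 2.45 times in TBX3iso2, and the log2 values with the pseudocount were smaller. They were 2.61 ± 0.217 (SE) in TBX3iso1 (adjusted p = 0.000106) and 0.84 in TBX3iso2 (adjusted p = 0.0156, limma). The TBX3iso2 call was lost without EV replicate 1 (0.86, adjusted p = 0.0676), without EV replicate 2 (0.82, adjusted p = 0.0779) and with a pseudocount of 1 RPKM (0.21, adjusted p = 0.129). Between the isoforms the log2 difference was -1.77 (adjusted p = 0.00276, limma), lower in TBX3iso2. The gene reached the 0.5 RPKM mean only through TBX3iso1.

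**Figure D2:**
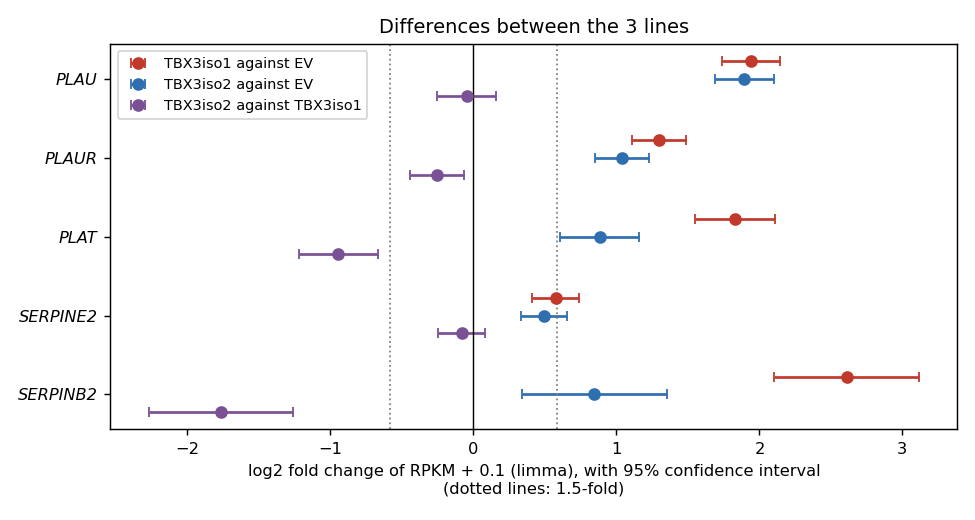
Log2 fold change of RPKM + 0.1 for the 5 genes in the 3 comparisons, with points for the estimates, bars for 95% confidence intervals and dotted lines at 1.5-fold. The intervals of *PLAU* and *SERPINE2* between TBX3iso2 and TBX3iso1 span 0, while those of *PLAT* and *SERPINB2* lie below the dotted line.

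Across lines the order of the 5 levels was the same: *PLAU*, then *PLAUR*, *SERPINE2*, *PLAT* and *SERPINB2*. Libraries of neighbours in this order did not overlap within a line. The distance between neighbours changed. *PLAU* RPKM was 1.21 and 1.38 times *PLAUR* in the EV libraries, 2.04 and 2.004 times in TBX3iso1, and 2.49 and 2.19 times in TBX3iso2. *PLAU* was 2.39 and 2.57 times *SERPINE2* in EV, 6.16 and 6.61 times in TBX3iso1, and 6.78 and 6.31 times in TBX3iso2. *PLAU* was 15.3 and 20.2 times *PLAT* in EV and 17.0 and 19.4 times in TBX3iso1, where the ranges overlapped, but 34.0 and 34.9 times in TBX3iso2.

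These are ratios of RNA levels between single genes, described without a test. They leave out other inhibitors of the activators, so they do not give the balance of activators and inhibitors, and they say nothing of protease activity.

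**Figure D3:**
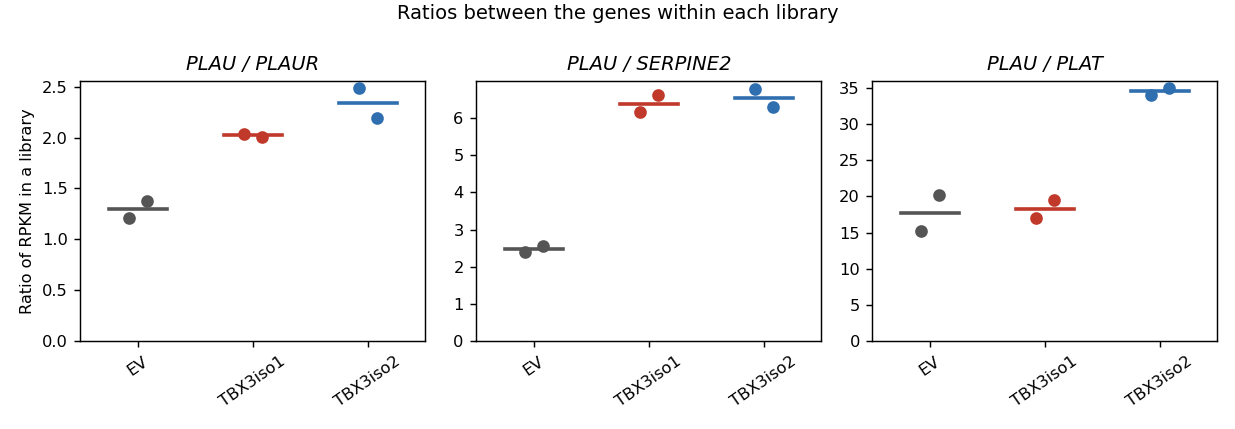
Ratios of RPKM per library for *PLAU* over *PLAUR*, *SERPINE2* and *PLAT*, on linear axes from 0, with 2 points per line and a bar at their mean. *PLAU* over *SERPINE2* is higher in both TBX3 lines than in EV, while *PLAU* over *PLAT* is higher in TBX3iso2 only.

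The promoter windows are shown because the transgene encodes a DNA-binding factor. The 250 bases before the transcript start were taken from RefSeq, for which 6 windows of *PLAU*, *PLAUR*, *SERPINE2* and *SERPINB2* were found, and located by exact match in GRCh37. These RefSeq starts differ from the ends of the gene spans given above, and all 6 windows lie inside those spans. In the second *PLAU* window 28 bases are in an annotated exon. The windows were searched on both strands for the T-box core GGTGTGA, the AP-1 site TGANTCA and the GC box GGGCGG, which do not overlap. The T-box core was in 0 of the 6 windows (2.76% of 35116 windows of all genes hold it), which says only that these letters are not there. The T-box motif that the study names in *SNAI2* does not hold this core. It lies near an intron/exon junction, so a search of this kind would miss such a site. The AP-1 letters were in 2 of the 6 (6.57% of all) and the GC box in 3 (42.6% of all). AP-1 factors of the Fos and Jun families are known regulators of several genes of this system. The lines below print the window at the second *PLAU* start (chr10:75670640-75670889, forward strand), the 27 bases around the *PLAUR* match (chr19:44174491-44174517, reverse strand), and the *SERPINB2* window (chr18:61554689-61554938, forward strand), with capitals marking the GC boxes in *PLAU* and the AP-1 letters in *PLAUR* and *SERPINB2*.
PLAU: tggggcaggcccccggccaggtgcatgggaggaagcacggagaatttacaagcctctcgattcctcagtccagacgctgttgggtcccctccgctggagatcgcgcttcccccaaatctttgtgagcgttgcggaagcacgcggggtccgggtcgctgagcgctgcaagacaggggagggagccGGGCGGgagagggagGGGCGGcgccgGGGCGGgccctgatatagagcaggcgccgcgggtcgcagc
PLAUR: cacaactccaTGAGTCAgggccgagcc
SERPINB2: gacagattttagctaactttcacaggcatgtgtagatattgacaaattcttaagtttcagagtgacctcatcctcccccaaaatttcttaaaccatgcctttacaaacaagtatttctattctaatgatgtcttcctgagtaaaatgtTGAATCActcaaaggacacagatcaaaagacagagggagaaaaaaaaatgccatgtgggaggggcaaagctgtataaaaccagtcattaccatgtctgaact
The 3 GC boxes of *PLAU* lie within 66 bases of the start, and the AP-1 letters lie 186 to 180 bases before the start of *PLAUR* and 102 to 96 bases before that of *SERPINB2*. A match is a description of the letters, not of binding.

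The genes with the most similar profile over the 6 libraries were taken by the smallest Euclidean distance between centred log2 values, as a description. For *PLAU* they were *CD83* (distance 0.129), *CXorf57* (0.167) and *KCNJ15* (0.23), and for *PLAUR* *TMEM97* (0.176), *ROBO3* (0.18) and *SNX10* (0.189). For *PLAT* they were *COL7A1* (0.31), *PAPSS2* (0.311) and *SERPINB7* (0.312), and for *SERPINE2* *PIPSL* (0.0751), *TRIM13* (0.0752) and *STARD3NL* (0.0859). *PIPSL* is a retrogene that can share reads with its parent genes, so its level is uncertain. For *SERPINB2* they were *IL32* (0.539), *SPRR1B* (0.862) and *HSD11B1* (0.864), which were farther away than the neighbours of the other members.

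A list of 50 other genes of the plasminogen system held 35 tested genes, with 14 more below a mean of 0.5 RPKM and 1 not analysed here. Among the 14 was plasminogen itself (*PLG*, at most 0.0239 RPKM), which is made mainly in liver. Of the 35, *HPN*, *FGB* and *MST1* reached the mean of 0.5 RPKM only through EV, so they had to differ from it, and *LRP1*, *SORL1* and *FGG* also had a line under 0.5 RPKM. The counts below include these 6 genes, and the shares are therefore a description and are not read against the background. In TBX3iso1 6 of the 35 were higher and 7 lower (37.1% called, where 21.5% of tested genes were), with a median log2 fold change of -0.04 beside -0.05 for all genes. In TBX3iso2 3 were higher and 8 lower (31.4%, where 21.2% of tested genes were), with a median of -0.19 beside -0.002. Between the isoforms 3 were higher in TBX3iso2 and 4 lower (20%, where 6.29% of tested genes were).

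Of the 4 other inhibitors of plasmin or its activators that are reported here and were tested, 1 was higher in TBX3iso1 and 2 in TBX3iso2. Over all tested genes 7.46% and 8.94% were higher. *SERPINA5*, protein C inhibitor, read at most 1.37 RPKM, with values of 0.62 and 0.92. Its TBX3iso1 call was lost without EV replicate 1 (0.31), TBX3iso1 replicate 1 (0.63) or TBX3iso1 replicate 2 (0.60), with a pseudocount of 1 RPKM (0.30) or 0.01 RPKM (limma adjusted p = 0.0502), and with no filter (adjusted p = 0.121). Its TBX3iso2 call was lost without EV replicate 1 (0.61) and with a pseudocount of 1 RPKM (0.48). *SERPINF2*, which encodes the plasmin inhibitor alpha-2-antiplasmin, was called only in TBX3iso2 (0.61), and this was lost without EV replicate 1 (0.62), EV replicate 2 (0.60) or TBX3iso2 replicate 2 (0.42), and with a pseudocount of 1 RPKM (0.43).

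Of 7 activators of pro-urokinase and their inhibitors, *HPN* alone was called against EV (14.3% in each comparison). Over all tested genes 21.5% were called in TBX3iso1 and 21.2% in TBX3iso2. *HPN* reached the mean of 0.5 RPKM only through EV. Its RNA, which encodes the transmembrane protease hepsin, read 2.78 and 2.35 RPKM in EV. It fell to 0.290 and 0.352 in TBX3iso1 and 0.411 and 0.466 in TBX3iso2 (log2 -2.66 and -2.30). Of 4 plasminogen receptors, *S100A10*, the partner of annexin A2, rose in TBX3iso1 (0.83) from a high level of 243 and 252 RPKM in EV. Its value in TBX3iso2 was 0.53, which passed the fold threshold only without TBX3iso2 replicate 1 (0.61).

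The clearance receptor group held 6 tested genes, not all of which encode receptors (*LRPAP1* does not). *LRP1*, which internalizes urokinase-inhibitor complexes, fell in TBX3iso2 by a log2 value of -1.80. It read 1.23 and 1.10 RPKM in EV against 0.283 and 0.244 in TBX3iso2. Its value in TBX3iso1 was -0.04. *VLDLR*, a related receptor, rose in TBX3iso1 (1.13) and was at -0.19 in TBX3iso2. *IGF2R*, which binds urokinase receptor, fell in TBX3iso2 (-0.83). Its TBX3iso1 value was -0.59, and that call was lost without EV replicate 1 (-0.54), EV replicate 2 (-0.65) or TBX3iso1 replicate 2 (-0.42), with median-ratio (-0.51) or quantile scaling (-0.58), with a pseudocount of 1 RPKM (-0.57), and with no filter (limma adjusted p = 0.0799).

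Of 7 tested genes on the surface that partner the receptor, *ITGAV*, the vitronectin receptor alpha chain, rose in TBX3iso1 (1.02) and TBX3iso2 (0.77), the latter lost without EV replicate 2 (0.71) or TBX3iso2 replicate 1 (0.52). *ITGA5*, a fibronectin receptor chain, rose in TBX3iso1 (0.83) and was at 0.31 in TBX3iso2. *EGFR*, the epidermal growth factor receptor, had a value of 0.64 in TBX3iso1 and was not called (limma adjusted p = 0.117). With the replicate block *EGFR* was called (limma adjusted p = 0.006), and it is named after its values were seen. The wider list also rose to 14 calls in TBX3iso1, from 13, when only the lines compared were fitted. *FPR1*, a formyl peptide receptor, fell in both (-1.67 and -2.54).

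Among 7 tested substrates, the fibrinogen chains *FGG* and *FGB* fell most. *FGG* went from 30.5 and 31.5 RPKM in EV to 0.240 and 0.420 in TBX3iso1 and 1.05 and 0.740 in TBX3iso2, and *FGB* from 3.39 and 3.63 to 0.154 or less in every TBX3 library. *MST1*, whose product is activated by proteases, fell in both (-2.20 and -2.22). Like *FGB*, it reached the mean of 0.5 RPKM only through EV. *MMP9*, a gelatinase whose zymogen plasmin can help activate, read 2.65 and 2.05 RPKM in EV and rose to 7.64 and 7.88 in TBX3iso1 (1.69), while TBX3iso2 read 1.99 and 1.99 (-0.22).

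**Figure D4:**
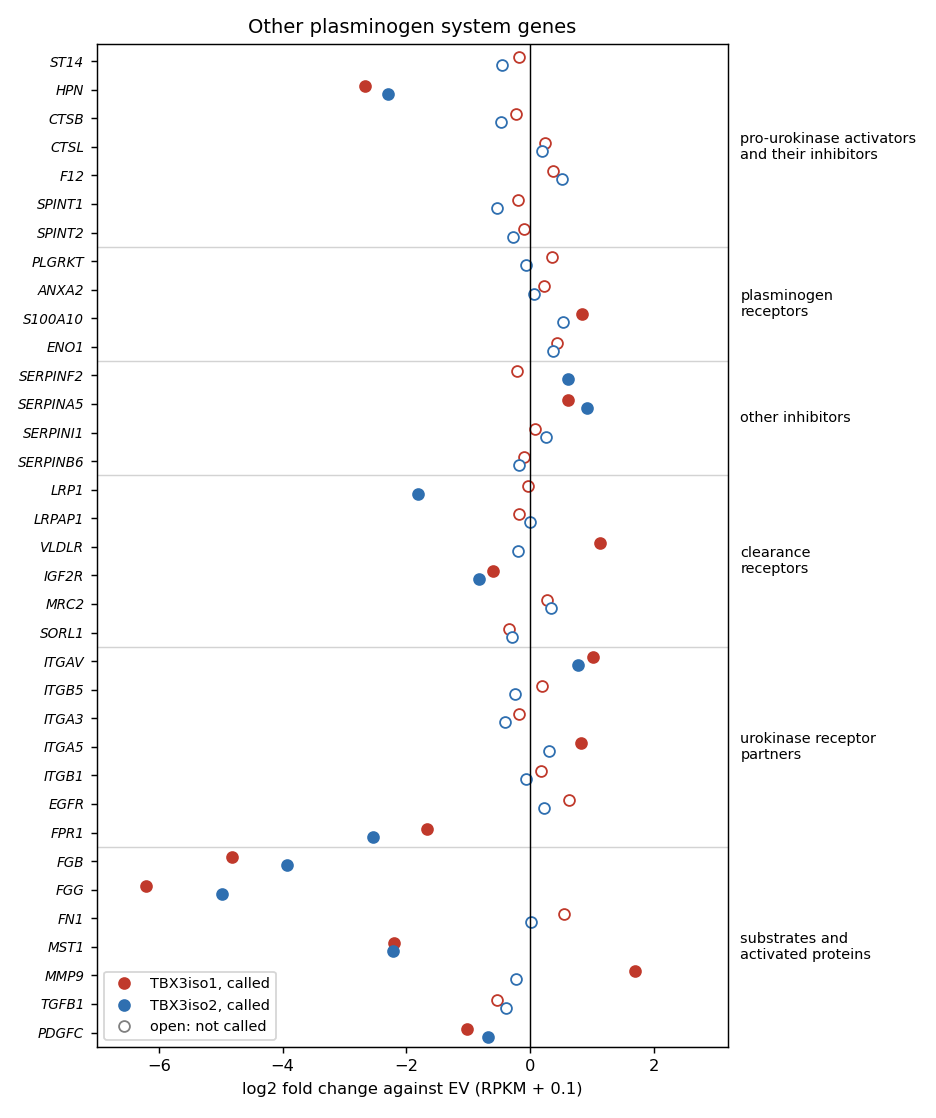
Log2 fold change against EV for the 35 tested genes of the wider list, grouped by role, with red points for TBX3iso1, blue for TBX3iso2 and open points for values not called. *MMP9* is the highest point of TBX3iso1, at 1.69, and *FGG* the lowest of both lines.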

How the data were processed

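Stranded messenger RNA libraries of the 3 lines (2 each) were sequenced as paired reads. Per the labels and the study's methods, the authors aligned them to hg19 with TopHat and computed RPKM per gene in Partek Genomics Suite, and the deposited RPKM values were used as they stand. Versions, the annotation and the use of strand are not given in the sources used here.

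Values were tested as log2(RPKM + 0.1) with limma 3.58.1 (R 4.3.3), with 1 mean per line over all 6 libraries, a trended prior and Benjamini-Hochberg adjustment over the genes averaging 0.5 RPKM or more. Fold changes of low genes are understated on this scale. Coordinates are from GENCODE on GRCh37 (hg19). Numbers of alignments per gene were estimated from RPKM, the deposited totals and 1 transcript length, and depth limits the low genes.

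All 5 members were named, with up to 4 called genes of each wider list group by size and the 3 nearest profiles of each member. The members and lists were chosen with earlier results of these data known. The motifs were reduced to 3 after looser patterns were seen to match widely. The alternatives tried were adding 1 or 0.01 RPKM, filtering at 2 RPKM or not at all, median-ratio and quantile scaling, a replicate block, no trend, only the lines compared, and each library left out. No promoter window was printed for *PLAT*. A gene that the rule of the wider list takes is not reported here, and the counts of that list, and the ratios, are without it.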

Additional observations from a re-analysis of the deposited data

Results flagged for a closer look

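Among the genes named above, 9 differed between the isoform lines by the limma test of TBX3iso2 against TBX3iso1 itself, as log2 differences. The wider list genes were named for their called differences in any of the 3 comparisons, this one included. *SERPINB2* reached the 0.5 RPKM mean only through TBX3iso1. The 9 are therefore a description and are not read against the 6.29% of all tested genes that were called. Lower in TBX3iso2 were *PLAT* (-0.94), *SERPINB2* (-1.77), *LRP1* (-1.77), *VLDLR* (-1.32), *FPR1* (-0.87) and *MMP9* (-1.91). Higher in TBX3iso2 were *SERPINF2* (0.82), *FGG* (1.22) and *FGB* (0.89). The *SERPINF2* call was lost without TBX3iso1 replicate 1 (0.73), the *FPR1* call without EV replicate 1 or 2 (-0.87 in each, adjusted p = 0.0521 and 0.0523), and the *FGB* call without EV replicate 1 or 2 (0.89), TBX3iso1 replicate 1 (0.89) or 2 (0.90), or TBX3iso2 replicate 1 (0.79). With a pseudocount of 1 RPKM the calls of *SERPINF2* (0.56), *FGG* (0.51) and *FGB* (0.15) were lost. With no filter those of *SERPINF2* (adjusted p = 0.0586), *FPR1* (0.0757) and *FGG* (0.0681) were lost, and when only the lines compared were fitted, those of *FPR1* (adjusted p = 0.0552), *FGG* (0.0512) and *FGB* (0.0933). The *ITGA5* value passed the fold threshold only without TBX3iso2 replicate 1 (-0.65). Total *TBX3* RNA, in which transgene and native transcript are not separated, averaged 12.3 RPKM in TBX3iso1 and 16.5 in TBX3iso2. That 1.35-fold difference was not called, and the part of the *TBX3* level in the other differences was not tested.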

How the results depend on the processing

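Of 222 values of the 5 members under alternatives, 214 kept direction and side of the threshold, 3 lost the call, 4 gained it and 1 reversed (*PLAU* between the isoforms, -0.12 to 0.0225 with a library left out). All other reversals were of values that were not called: *LRP1* in TBX3iso1 was 0.0415 with median-ratio and 0.162 with quantile scaling, and -0.24 to 0.17 with a library left out; *SERPINF2* in TBX3iso1 was 0.00269 with quantile scaling; *MST1* between the isoforms was -0.16 to 0.12 with a library left out. With a pseudocount of 1 RPKM 1812 genes were called for TBX3iso1 (from 2757) and 419 between the isoforms (from 805), and 4 of the wider list between the isoforms (from 7). With a filter at a mean of 2 RPKM, 504 genes and 3 of the wider list were called between the isoforms, 8 and 5 of the wider list in TBX3iso1 and TBX3iso2 (from 13 and 11), and 1 member between the isoforms, *SERPINB2* not being tested. The wider list had 4 between the isoforms without a filter and 4 when only the lines compared were fitted. The cause was not tested except where fewer genes were tested.

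With each library left out, 4 to 5 members, *SERPINB2* included, were called in TBX3iso1, 3 to 4 in TBX3iso2 and 2 between the isoforms. Without *SERPINB2* 3 to 4 were called in TBX3iso1, 3 in TBX3iso2 and 1 between the isoforms. The wider list had 11 to 14, 9 to 12 and 5 to 9 called. Over all genes the counts were 2295 to 3068, 2304 to 3168 and 623 to 919. The replicate block gave 2838, 2795 and 900 genes called and changed no member call (4, 4 and 2 with *SERPINB2*, 3, 3 and 1 without). In the wider list it gave 14, 11 and 7 calls, from 13, 11 and 7, and *EGFR* in TBX3iso1 was the call gained. Same-numbered libraries deviated together by correlations of 0.22, 0.114 and 0.499. The labels name no shared batch, so whether the numbers pair the libraries is not settled. Low RPKM values, as of *SERPINB2* in EV, rest on about 10 alignments.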
